A study of Homo sapiens with 20 samples.

Results

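The 39 HOX genes of the HOXA, HOXB, HOXC and HOXD clusters were examined in the peak lists of 20 ChIP-seq libraries from established human cell lines. Members were the GENCODE protein-coding genes on GRCh38/hg38 whose symbols start with HOXA, HOXB, HOXC or HOXD followed by a digit, 39 of 20033 protein-coding genes. The regions counted were those that overlap the span of a cluster plus 20 kb on each side. These were 383 of 562813 regions, of which 109 lay in AU-15330 lists and 274 in DMSO lists. The spans were chr7:27072993-27220091 for HOXA (11 genes), chr17:48508526-48748750 for HOXB (10 genes), chr12:53918831-54076030 for HOXC (9 genes) and chr2:176072721-176210907 for HOXD (9 genes), 683 kb in all.

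HOX genes encode homeodomain transcription factors that give cells their position along the body axis, and the order of the genes in a cluster follows the order of their domains along that axis. Polycomb proteins hold the clusters silent and trithorax proteins keep them active, and HOX proteins bind DNA together with PBX and MEIS partners. Adult tissues and tumors keep a HOX code of their origin, and HOXA and HOXB genes are well known in blood cells and leukemia, while HOXA5 is needed for lung development in mice.

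AU-15330 is a PROTAC that degrades SMARCA2 and SMARCA4, the ATPases of the mSWI/SNF chromatin remodeler, and it was given at 1 µM, with DMSO as the vehicle. The treatment note gives 4 to 6 h in general, and the titles give 6 h for the HA libraries of NCI-H1048 cells treated with AU-15330. The SCLC-P lines, a tuft cell-like subtype of small cell lung cancer, were NCI-H526 and NCI-H1048. In NCI-H526 cells HA-POU2AF2, HA-POU2F3 and POU2F3 were pulled down. In NCI-H1048 cells these were HA-POU2F3, POU2F3 and an HA-tagged protein left unnamed in the labels, called the unnamed HA pair. The labels name POU2F3 in this line's untagged libraries only through the antibody, which is the one used for POU2F3 in NCI-H526 cells. MM1.S and NCI-H929 are lines of multiple myeloma, a plasma cell cancer, and in each of them IRF4 and POU2AF1 were pulled down. POU2F3 is the octamer-binding factor of tuft cells, POU2AF2 is its coactivator, POU2AF1 is the B cell coactivator of octamer factors, and IRF4 is a transcription factor on which plasma cells depend. HA-POU2F3 and HA-POU2AF2 were lentiviral dTAG fusions in Cas9-expressing cells in which the endogenous gene had been knocked out. Their libraries thus differ from the antibody libraries in cells as well as in antibody. The titles of the unnamed HA pair name no dTAG fusion. Each of the 10 pairs of AU-15330 and DMSO had 1 library per condition. No replicate error exists, no test was made, and intervals cover counting error only.

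The lists held 1327 to 89902 regions, and the AU-15330 list was the smaller in 9 of 10 pairs, the exception being POU2F3 in NCI-H1048 cells. The shortest lists were those of AU-15330 for the unnamed HA pair (1327 regions), IRF4 in NCI-H929 cells (1983) and HA-POU2AF2 in NCI-H526 cells (2665). Of 10 tuft cell genes, 7 to 10 had a region within 1 kb of a TSS in the SCLC-P DMSO lists and 3 to 5 in the myeloma DMSO lists. Of 10 plasma cell genes 8 to 9 had one in the myeloma DMSO lists and 1 to 4 in the SCLC-P DMSO lists. Over all protein-coding genes the shares were 17.6% to 59.2% in SCLC-P DMSO lists and 48.6% to 64.6% in myeloma DMSO lists.

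The sequences printed here are 201 bases of hg38, plus strand, centered on the summit of a DMSO region. They are the strongest regions of a cluster that carry the octamer core TTTGCAT (POU2F3, HA-POU2F3 and HA-POU2AF2 lists) or a CTCF motif (POU2AF1 lists), with the match in capitals on whichever strand it lies.
HOXA6 octamer window, chr7:27150963-27151163: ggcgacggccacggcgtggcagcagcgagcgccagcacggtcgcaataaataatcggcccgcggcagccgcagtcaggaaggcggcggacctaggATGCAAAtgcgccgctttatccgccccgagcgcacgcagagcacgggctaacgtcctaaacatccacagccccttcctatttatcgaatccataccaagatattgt
HOXC4 octamer window, chr12:54068220-54068420: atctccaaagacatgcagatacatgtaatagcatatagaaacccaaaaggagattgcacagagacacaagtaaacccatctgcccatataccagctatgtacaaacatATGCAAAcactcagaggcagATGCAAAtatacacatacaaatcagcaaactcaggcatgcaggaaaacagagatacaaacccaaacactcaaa
HOXD3 octamer window, chr2:176134176-176134376: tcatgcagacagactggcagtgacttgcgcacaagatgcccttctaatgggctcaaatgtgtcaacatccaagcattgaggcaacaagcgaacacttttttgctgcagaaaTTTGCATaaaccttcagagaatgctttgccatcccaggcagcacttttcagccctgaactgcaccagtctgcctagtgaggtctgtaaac
HOXB7 octamer window, chr17:48635390-48635590: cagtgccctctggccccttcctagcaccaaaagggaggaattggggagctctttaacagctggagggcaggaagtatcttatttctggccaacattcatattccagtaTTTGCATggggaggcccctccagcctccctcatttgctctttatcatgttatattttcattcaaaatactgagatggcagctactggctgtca
HOXD12 CTCF window, chr2:176097622-176097822: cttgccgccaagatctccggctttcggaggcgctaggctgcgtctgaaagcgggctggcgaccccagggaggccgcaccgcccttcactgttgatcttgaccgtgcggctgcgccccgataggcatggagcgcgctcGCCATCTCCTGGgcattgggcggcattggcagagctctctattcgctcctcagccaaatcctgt
Windows lying in an exon of a protein-coding gene were left out by choice, and those printed have no base in one. The HOXA6 window is 60.7% G and C with 23 CpG dinucleotides, overlaps an exon of the antisense RNA HOXA-AS3 and has its octamer core 5 bases from the summit. The HOXC4 window, by contrast, is 39.3% G and C with 0 CpG and holds 2 octamer cores. The HOXD3 and HOXB7 windows are each 47.8% G and C, with octamer cores 11 and 8 bases from the summit.

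The first question was where in the clusters the 4 proteins were found and how the SCLC-P lines differed from the myeloma lines. In DMSO lists the HOX spans held 9 to 61 regions each, which is 2.02 to 4.49 times the density of the list over the genome. The split between clusters differed between the SCLC-P and myeloma lists. No named protein was pulled down in both tumor types, so tumor type and protein cannot be told apart in any comparison of them. The 6 SCLC-P DMSO lists had 62 regions in HOXA, 15 in HOXB, 46 in HOXC and 56 in HOXD. The 4 myeloma DMSO lists had 16 in HOXA, 37 in HOXB, 22 in HOXC and 20 in HOXD. HOXB thus held fewer regions than HOXA in SCLC-P lists and more in myeloma lists, with HOXB over HOXA ratios of 0.242 and 2.31. A site called in several lists counts once per list in these numbers. As distinct sites, the SCLC-P DMSO lists had 26 in HOXA and 13 in HOXB, and the myeloma DMSO lists 7 and 17.

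This contrast in counts was seen list by list, as the bar plot of regions per cluster shows. In SCLC-P DMSO lists HOXA had 6 to 20 regions and HOXB 0 to 8, and HOXA had more in each of the 6. In myeloma DMSO lists HOXA had 2 to 7 and HOXB 6 to 13, and HOXB had more in each of the 4. Relative to the genome-wide density of the same list, HOXB was at 0 to 1.14 times in SCLC-P DMSO lists and 2.17 to 4.57 times in myeloma DMSO lists. The HOXB span is longer, at 240 kb against 147 kb for HOXA. Among DMSO lists HOXB was denser than HOXA in MM1.S cells alone. The densities there were 4.57 against 1.15 times for POU2AF1 and 2.7 against 1.89 times for IRF4. In NCI-H929 cells HOXB was below HOXA, at 2.59 against 2.82 times for POU2AF1 and 2.17 against 2.25 times for IRF4. Among DMSO lists HOXD reached its highest relative density, 8.47 times, with HA-POU2AF2 in NCI-H526 cells.

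**Figure D1:**
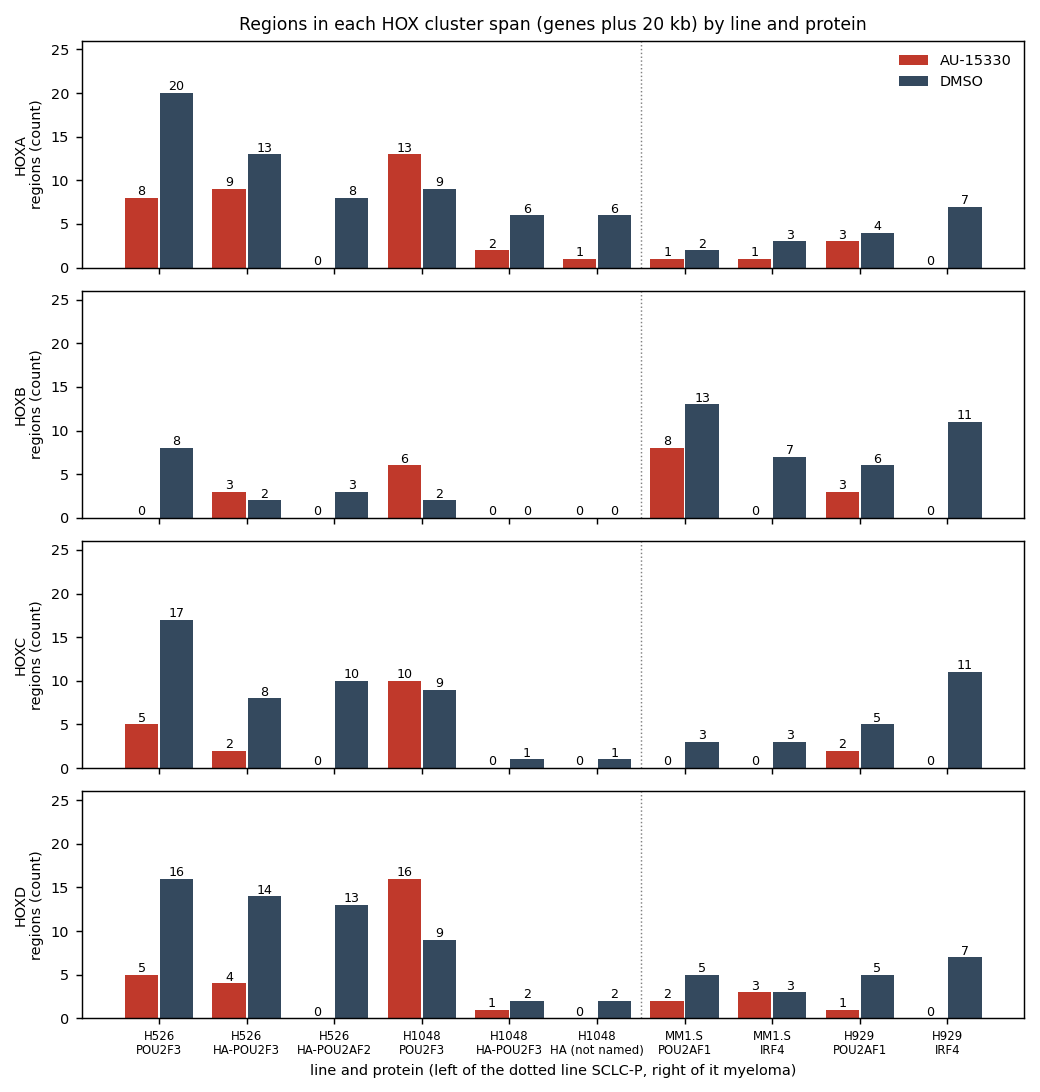
Number of regions in the span of each HOX cluster for each line and protein, with AU-15330 as the left bar and DMSO as the right bar of a pair. HOXB has 0 to 8 regions in SCLC-P DMSO lists and 6 to 13 in myeloma DMSO lists, and only POU2F3 in NCI-H1048 cells has more regions with AU-15330 in all 4 clusters.

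At promoters, 31 of the 39 genes had a region within 1 kb of a TSS of any transcript in at least 1 DMSO list. The 8 genes with none in any of the 20 lists were HOXA2, HOXB6, HOXB8, HOXB13, HOXC8, HOXC11, HOXD4 and HOXD9. In SCLC-P DMSO lists 9 of 11 HOXA, 2 of 10 HOXB, 7 of 9 HOXC and 7 of 9 HOXD promoters had a region at least once. In myeloma DMSO lists these were 5 of 11, 6 of 10, 6 of 9 and 1 of 9. Promoters of HOXB2, HOXB3, HOXB4, HOXB5, HOXB9 and HOXA4 had regions in DMSO lists of myeloma lines alone. Those of 13 genes, among them HOXA3, HOXA9, HOXA10, HOXD3, HOXD8 and HOXD11, had regions in DMSO lists of SCLC-P lines alone. These counts join 6 SCLC-P and 4 myeloma DMSO lists of different proteins, and the matching counts over all genes are not given here. They thus do not show whether HOX promoters differ from other promoters, and shares per list follow below.

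HOX promoters were less often bound than other promoters in the myeloma lists. POU2AF1 in MM1.S cells had a region at 4 HOX promoters with AU-15330 and 9 with DMSO (10.3% and 23.1% of HOX genes), beside 49.6% and 60.1% of all protein-coding genes. In NCI-H929 cells POU2AF1 had 6 and 10 HOX promoters, beside 50.6% and 56.9% of all genes. IRF4 had 1 and 5 in MM1.S cells, beside 16% and 48.6%, and 0 and 13 in NCI-H929 cells, beside 2.12% and 64.6%. As shares of the 39 genes, the myeloma DMSO lists were at 12.8% to 33.3%.

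In SCLC-P lists the HOX share was nearer to that of all genes. POU2F3 in NCI-H526 cells had a region at 9 HOX promoters with AU-15330 and 18 with DMSO, or 23.1% and 46.2% of HOX genes against 18.5% and 59.2% of all genes. HA-POU2F3 in NCI-H526 cells had 10 and 16, against 25.7% and 52.5% of all genes, and HA-POU2AF2 had 0 and 14, against 1.22% and 39.1%. POU2F3 in NCI-H1048 cells had 20 and 15, against 63% and 41.5% of all genes. HA-POU2F3 in NCI-H1048 cells had 2 and 8, against 8.24% and 17.6%, and the unnamed HA pair 0 and 6, against 0.879% and 18.4%. A region can lie within 1 kb of several TSSs in these dense clusters, so the genes are not independent counts.

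**Figure D2:**
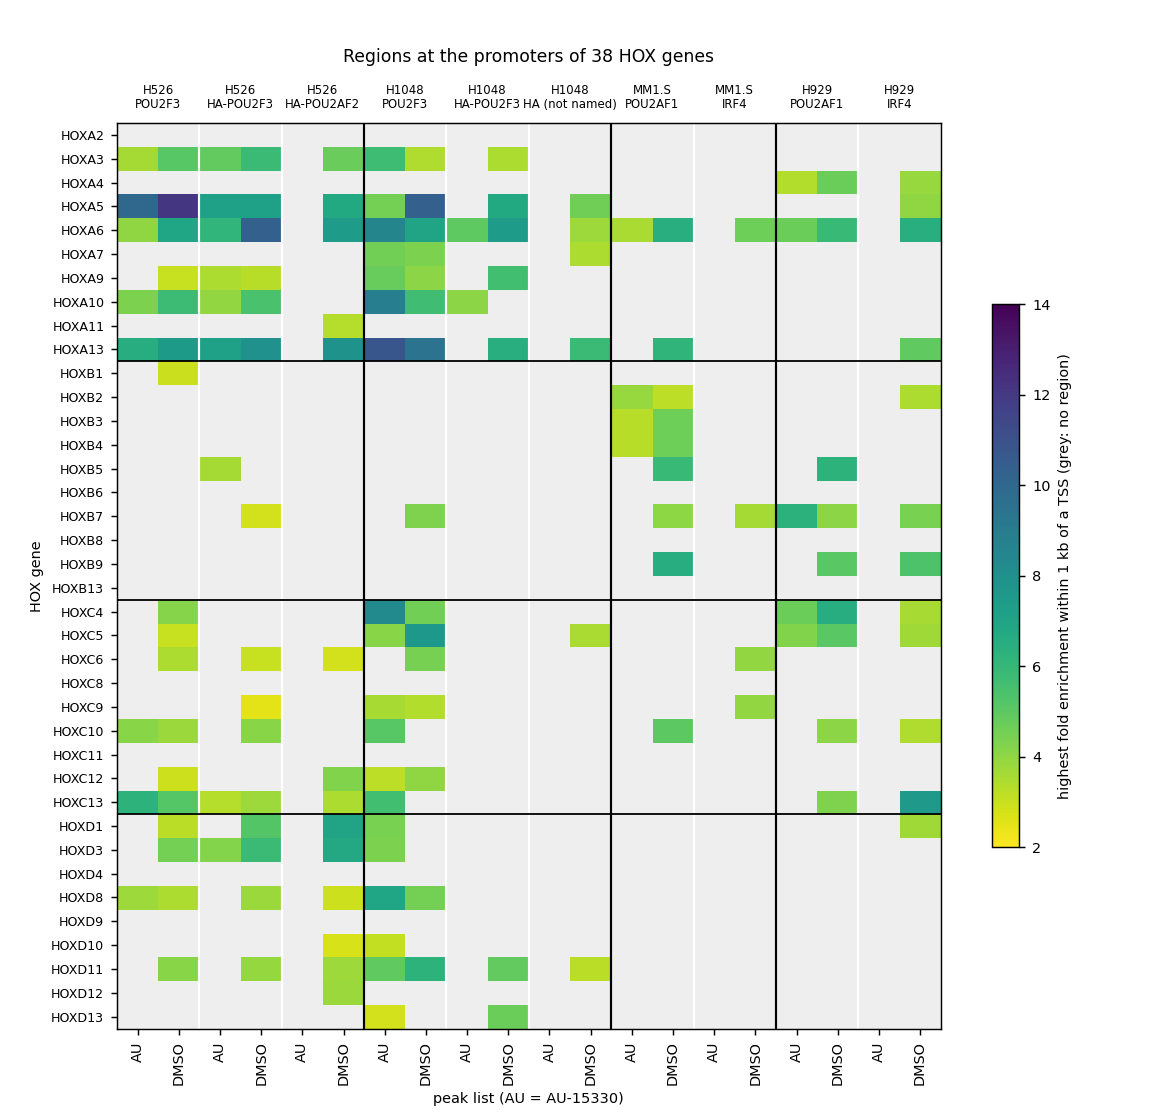
Highest fold enrichment of a region within 1 kb of a TSS of 38 HOX genes (rows) in each of the 20 lists (columns, AU-15330 left of DMSO in each pair), with grey where the list has no region. HOXA6 is colored in all 10 DMSO columns, HOXB2 to HOXB5 and HOXB9 mainly in myeloma columns, and HOXD genes mainly in SCLC-P columns.

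HOXA6 was the HOX promoter bound in the most lists. Its region, at chr7:27150609-27151509 and upstream of the gene, was present in 16 of the 20 lists, 6 with AU-15330 and 10 with DMSO. It was the site of the HOXA6 octamer sequence printed above. The fold over local background was 4.01 with AU-15330 and 6.92 with DMSO for POU2F3 in NCI-H526 cells, and 6.09 and 10.3 for HA-POU2F3 in these cells. For POU2F3 in NCI-H1048 cells it was 8.55 and 6.99, and for HA-POU2F3 there 4.99 and 7.42. In myeloma lines POU2AF1 had 3.5 and 6.47 in MM1.S cells and 4.7 and 5.9 in NCI-H929 cells. The DMSO folds of HA-POU2AF2 (7.4), of IRF4 in MM1.S cells (4.66) and NCI-H929 cells (6.49), and of the unnamed HA pair (3.78) had no AU-15330 region beside them.

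The level at a site was taken as the summit pileup (the number of fragments stacked at the summit) divided by that library's background pileup. At HOXA6 the ratio of AU-15330 to DMSO levels was 0.526 for POU2F3 and 0.47 for HA-POU2F3 in NCI-H526 cells. It was 0.509 for HA-POU2F3 in NCI-H1048 cells, and 0.556 and 0.763 for POU2AF1 in MM1.S and NCI-H929 cells. POU2F3 in NCI-H1048 cells stood apart at 1.8. Of the 9 DMSO lists with summits, 8 had a TTTGCAT within 100 bases of the summit here, and the summit of POU2AF1 in NCI-H929 cells lay farther from it.

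HOXA5, which mice need for lung development, carried the POU2F3 region with the highest fold of the HOXA cluster in the DMSO lists of both NCI-H526 and NCI-H1048 cells. The NCI-H526 fold was 9.98 with AU-15330 and 12.1 with DMSO, at levels of 20.7 and 30.5. In NCI-H1048 cells it was 4.5 and 10.3, at levels of 12.5 and 27.8. All 6 SCLC-P DMSO lists had a region at this promoter, against 1 of 4 myeloma DMSO lists, IRF4 in NCI-H929 cells at a fold of 4.01. No octamer core lay within 100 bases of its summit in any list that has summits.

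HOXA13, a posterior gene of limb and urogenital development, had a promoter region in 8 DMSO lists, all 6 of SCLC-P lines among them. POU2F3 folds there were 6.52 with AU-15330 and 7.46 with DMSO in NCI-H526 cells and 10.8 and 9.45 in NCI-H1048 cells. HOXD11, another posterior gene that patterns the limb, had a region in all 6 SCLC-P DMSO lists at folds of 3.25 to 6.25 and in no myeloma list. With AU-15330 it kept one in POU2F3 of NCI-H1048 cells alone, at a fold of 4.93.

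HOXB7 was the HOXB promoter bound most often, in 6 DMSO lists. The folds were 4.03 and 3.62 with POU2AF1 and IRF4 in MM1.S cells, 4.08 and 4.4 in NCI-H929 cells, 2.83 with HA-POU2F3 in NCI-H526 cells and 4.32 with POU2F3 in NCI-H1048 cells. With AU-15330 it remained in 1 list, POU2AF1 of NCI-H929 cells, where the fold was 6.31 and the level was 11.8, against 4.08 and 5.99 with DMSO. HOXB9 had regions in 3 myeloma DMSO lists, at folds of 5.09, 5.36 and 6.5, and in no AU-15330 list. In the HOXC cluster, HOXC5, HOXC6, HOXC10 and HOXC13 each had a promoter region in 5 DMSO lists, at folds of up to 7.58, 4.45, 5.04 and 7.53.

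Merging overlapping regions of all lists gave 126 sites, 31 in HOXA, 31 in HOXB, 33 in HOXC and 31 in HOXD. Of these, 57 were in a single list and 5 were in 10 or more, of which 4 lay in HOXA and 1 in HOXD. By their midpoints, 46 sites lay within 1 kb of a TSS, 24 in introns, 8 in exons and 48 between genes. DMSO regions of SCLC-P lists alone made up 66 sites, those of myeloma lists alone 27, and 19 sites had DMSO regions of both. The same split over all sites of the lists is not given here, and the groups differ in proteins and in number of lists. The split is thus not read as a trait of the HOX clusters.

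The 19 sites with DMSO regions in both tumor types fell 4 in HOXA, 3 in HOXB, 8 in HOXC and 4 in HOXD. In HOXA all 4 were promoters, HOXA5, HOXA6 and HOXA13 among them. In HOXB they were 1 promoter, that of HOXB7, and introns of HOXB3 and of HOXB7. In HOXC they were the promoters of HOXC5, HOXC9, HOXC10 and HOXC13, introns of HOXC4, HOXC6 and HOXC11, and an exon of HOXC10. In HOXD none was a promoter.

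The HOXD site in the most lists, in an intron of HOXD3 at chr2:176140326-176141135, had regions in 11 lists, 3 with AU-15330 and 8 with DMSO. POU2AF1 in MM1.S cells was the strongest there, with levels of 17.5 with AU-15330 and 18.3 with DMSO. POU2AF1 in NCI-H929 cells had levels of 9.31 and 7.7, and POU2F3 in NCI-H1048 cells 6.59 and 5.74. The other HOXD sites of both tumor types lay upstream of HOXD12, at chr2:176096462-176097401 and chr2:176097453-176097958, and upstream of HOXD1, at chr2:176177971-176178881. The second of these holds the CTCF motif printed above, within 100 bases of the summit in POU2F3 and POU2AF1 lists. A CTCF motif lay at 1 of 23 HOX summits of POU2AF1 in MM1.S cells with DMSO (4.35%), against 5.57% of the list.

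**Figure D3:**
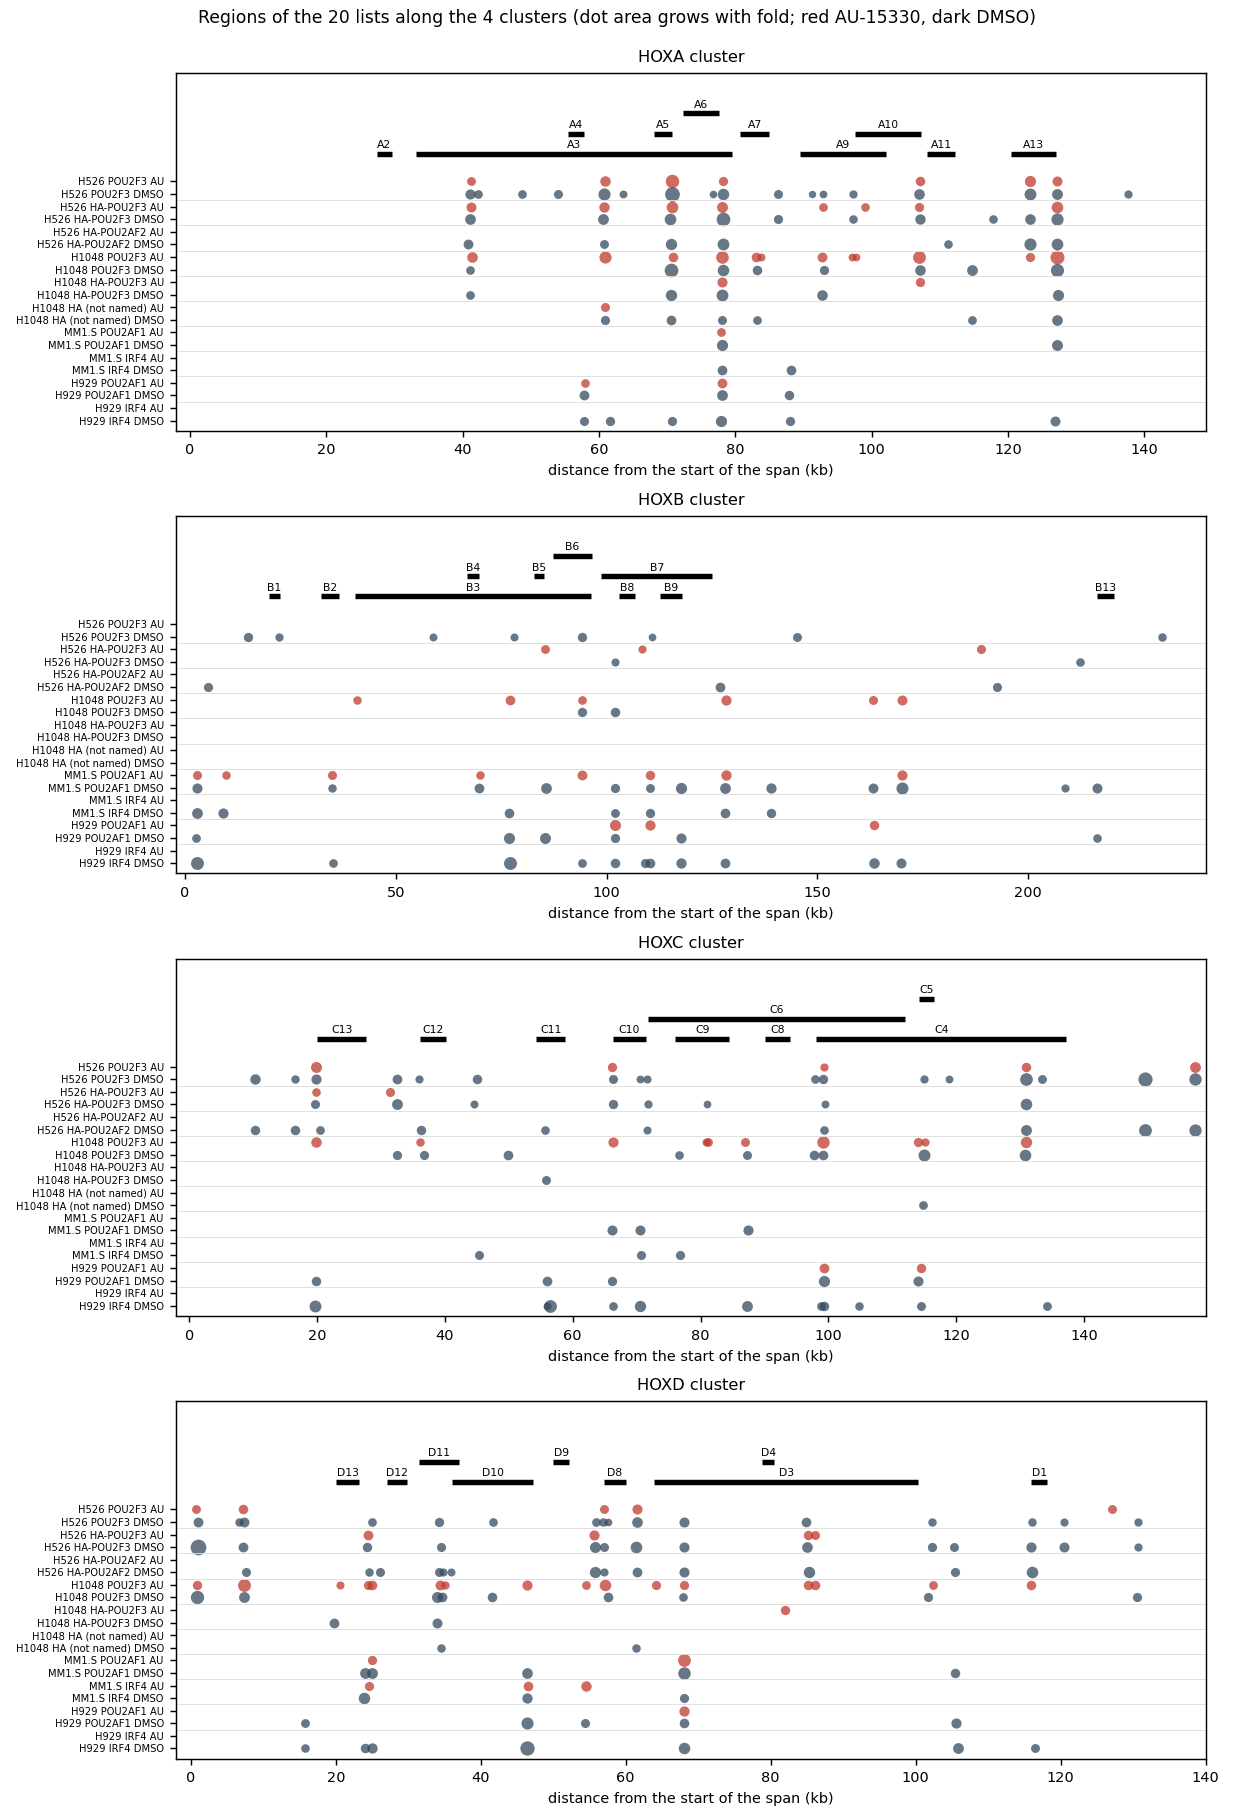
Regions of each of the 20 lists (rows, AU-15330 above DMSO in each pair) along the 4 clusters, without those nearest to 1 HOXA gene, by distance in kb from the start of the span, with dot area growing with fold and HOX genes drawn as bars. Columns of dots mark sites in many lists, such as the HOXA6 promoter with 16 lists and the HOXD3 intron with 11.

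Some of the strongest regions were in few lists. A site between genes, downstream of HOXC4 at chr12:54068122-54068674, had regions of POU2F3 (fold 11.1, level 19.6) and HA-POU2AF2 (fold 8.76, level 12.3) in NCI-H526 cells with DMSO and in no other list. It is the HOXC4 octamer window printed above. The highest fold of all HOX regions, 14, was that of HA-POU2F3 with DMSO in NCI-H526 cells at chr2:176073374-176073988, in the flank beyond EVX2, at a level of 41.9. It had no AU-15330 region in that pair, and no octamer core near its summit. At this site POU2F3 had levels of 5.6 with AU-15330 and 16.8 with DMSO in NCI-H1048 cells and 4.94 and 7.44 in NCI-H526 cells.

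In myeloma lines the strongest HOX regions were those of IRF4 in NCI-H929 cells. One in an exon of HOXD10, at chr2:176118959-176119356, had a fold of 11.4 and a level of 22.9 with DMSO. POU2AF1 (fold 7.85) in the same line, and POU2AF1 (5.82) and IRF4 (5.34) in MM1.S cells, also had DMSO regions there. A site in the flank of HOXB1, at chr17:48510995-48511605, had DMSO regions of IRF4 and POU2AF1 in both myeloma lines and none in SCLC-P lines. Its IRF4 folds were 9.09 in NCI-H929 cells and 5.99 in MM1.S cells. With AU-15330 it had no IRF4 region in either line.

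The overlap of partner proteins in the HOX spans lay above that of the whole list in some directions and below it in others. Of the HA-POU2AF2 DMSO regions in NCI-H526 cells, 24 of 34 (70.6%) overlapped a POU2F3 region, against 75.4% over the whole list, and 23 of 61 POU2F3 regions (37.7%) overlapped one of HA-POU2AF2, against 28.6%. Of the POU2AF1 DMSO regions in NCI-H929 cells, 16 of 20 (80%) overlapped an IRF4 region, against 71.3% over the list, and 16 of 36 IRF4 regions (44.4%) overlapped one of POU2AF1, against 32.6%. In MM1.S cells 10 of 23 POU2AF1 regions overlapped one of IRF4 (43.5%), against 48.8%. Between lines, 20 of 61 POU2F3 regions of NCI-H526 cells (32.8%) overlapped one of NCI-H1048 cells, against 23.8% over the list, and 20 of 29 of NCI-H1048 cells (69%) one of NCI-H526 cells, against 56.6%.

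The octamer core was less common at HOX regions than over the list in all 5 SCLC-P DMSO lists with summits, and the exact interval excluded the list share in 2 of them, the POU2F3 lists of NCI-H526 and NCI-H1048 cells. For POU2F3 in NCI-H526 cells, TTTGCAT lay within 100 bases of 15 of 61 HOX summits (24.6%, exact 95% interval 14.5% to 37.3%), against 46.9% of the list. In NCI-H1048 cells it lay at 5 of 29 (17.2%, 5.85% to 35.8%), against 44.4%. For HA-POU2F3 the shares were 12 of 37 (32.4%, 18% to 49.8%) against 35.6% in NCI-H526 cells and 2 of 9 (22.2%, 2.81% to 60%) against 52.4% in NCI-H1048 cells. For HA-POU2AF2 it was 13 of 34 (38.2%, 22.2% to 56.4%) against 46.1%. These 3 HA lists were within counting error of the list share.

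HOX summits also differed from the lists in base composition, and this held for the HA lists as well. HOX summits of POU2F3 in NCI-H526 cells with DMSO were 51.2% G and C (median over 201 bases) against 39.8% over the list, and in NCI-H1048 cells 59.2% against 39.3%. HA-POU2F3 and HA-POU2AF2 in NCI-H526 cells, whose octamer shares were nearer to those of their lists, had 56.2% against 41% and 57.7% against 42.8%. The medians of CpG dinucleotides for POU2F3 were 8 against 2 in NCI-H526 cells and 12 against 2 in NCI-H1048 cells. Of the HOX summits of these POU2F3 lists 37.7% and 55.2% lay within 1 kb of a TSS, against 15.6% and 21.2% over these lists. Whether base composition or place accounts for the octamer share was not tested. In MM1.S cells with DMSO the octamer core lay at 2 of 23 HOX summits of POU2AF1 (8.7%, against 7.29% of the list) and 1 of 16 of IRF4 (6.25%, against 4.59%). In NCI-H929 cells it lay at 0 of 20 of POU2AF1 (up to 16.8%, against 7.99%) and 2 of 36 of IRF4 (5.56%, against 5.18%). An IRF pattern of 2 GAAA copies with 2 bases between them, searched on both strands, lay at 3 of 36 IRF4 summits in NCI-H929 cells (8.33%, 1.75% to 22.5%) against 11.2% of the list, and at 0 of 16 in MM1.S cells (up to 20.6%) against 10.9%.

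The second question was what AU-15330 left in the clusters. Over the 10 pairs 65 of 274 DMSO regions were retained, meaning that at least 1 base was covered by a region of the matching AU-15330 list, and 209 were lost. By cluster 29 of 78 were retained in HOXA, 8 of 52 in HOXB, 11 of 68 in HOXC and 17 of 76 in HOXD. The clusters drew on different pairs, with 62 of the 78 HOXA regions from SCLC-P lists and 37 of the 52 HOXB regions from myeloma lists. Whole-list retained shares ran from 0.888% to 44.6% between pairs, so these pooled counts do not rank the clusters. POU2F3 in NCI-H1048 cells gave 18 of the 65. Without that pair, the retained regions were 22 of 69 in HOXA, 7 of 50 in HOXB, 7 of 59 in HOXC and 11 of 67 in HOXD, and AU-15330 regions in all were 64, against 245 with DMSO.

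POU2F3 in NCI-H526 cells had 18 HOX regions with AU-15330 and 61 with DMSO. Of the 61, 17 were retained (27.9%, exact 95% interval 17.1% to 40.8%), against 16.7% over the whole list. HA-POU2F3 in these cells had 18 and 37, with 11 retained (29.7%, 15.9% to 47%) against 14.6%. HOXA kept 8 of 20 regions for POU2F3 and 7 of 13 for HA-POU2F3, while HOXB kept 0 of 8 and 0 of 2. The background pileup of POU2F3 in NCI-H526 cells was 2.02 with AU-15330 and 4.03 with DMSO. At an unchanged level 48 of the 61 regions would still have passed the p-value threshold of the AU-15330 list, and 36 of 37 would have done so for HA-POU2F3. With only as many of the strongest DMSO regions as the AU-15330 list holds, the retained shares were 83.3% against 56.4% of the list for POU2F3 and 50% against 32% for HA-POU2F3. These shares rest on fewer HOX regions than the 61 and 37.

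The genes that kept a promoter region numbered 9 in each of these 2 pairs, and 7 were shared. HOXA3, HOXA5, HOXA6, HOXA10, HOXA13 and HOXC13 were among those that kept one in both, while HOXC6, HOXD1 and HOXD11 lost theirs in both. POU2F3 in NCI-H526 cells kept 9 of 18 HOX promoters (50%), against 30.6% over all genes, and HA-POU2F3 9 of 16 (56.2%), against 44.4%. Of the POU2F3 regions with a summit within 1 kb of a TSS, 10 of 23 in the HOX spans were retained (43.5%), against 21.8% in the list. Of those farther away 7 of 38 were retained (18.4%), against 15.7%.

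HA-POU2AF2 in NCI-H526 cells had 0 HOX regions with AU-15330 and 34 with DMSO (0% retained, up to 10.3%), against 1.26% over the list, and 0 of 14 HOX promoters kept a region, against 2.45% over all genes. Its background pileup was 1.21 with AU-15330 and 3.49 with DMSO. Only 14 of the 34 would have passed at an unchanged level, against 44.8% of the list. In this pair the loss of sensitivity and the treatment cannot be told apart at the other 20 regions. At the 14, the calculation allows for the background pileup alone, and a weaker pulldown with AU-15330 was not tested. IRF4 in NCI-H929 cells likewise had 0 with AU-15330 and 36 with DMSO (0%, up to 9.74%), against 0.888% over the list. For IRF4 there, 34 of the 36 would have passed, against 96.3% of the list. None of its 13 HOX promoters kept a region, against 3.21% over all genes.

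The other HA and IRF4 pairs had few regions. HA-POU2F3 in NCI-H1048 cells had 3 with AU-15330 and 9 with DMSO, of which 1 was retained (11.1%, 0.281% to 48.2%), against 7.72%, and 1 of 8 HOX promoters kept a region (12.5%), against 26.9% over all genes. The unnamed HA pair had 1 and 9, of which 1 was retained (11.1%, 0.281% to 48.2%), against 1.95%, and 0 of 6 promoters, against 3.48%. IRF4 in MM1.S cells had 4 and 16, of which 2 were retained (12.5%, 1.55% to 38.3%), against 9.76%, and 1 of 5 promoters (20%), against 29.4%.

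POU2AF1 in MM1.S cells had 11 HOX regions with AU-15330 and 23 with DMSO, of which 9 were retained (39.1%, 19.7% to 61.5%), against 33.7%. With a −log10 q of at least 5 in both lists it was 15.8%, against 35% of the list, on fewer HOX regions than the 23. In NCI-H929 cells POU2AF1 had 9 and 20, of which 6 were retained (30%, 11.9% to 54.3%), against 38.4%. At promoters POU2AF1 kept 4 of 9 HOX genes in MM1.S cells (44.4%), against 80.1% over all genes with a DMSO promoter region, and 6 of 10 in NCI-H929 cells (60%), against 83.7%. In MM1.S cells the 4 were HOXA6, HOXB2, HOXB3 and HOXB4, and in NCI-H929 cells the 6 included HOXA4, HOXA6, HOXB7, HOXC4 and HOXC5. HOXB5, HOXB9 and HOXC10 had POU2AF1 promoter regions with DMSO in both lines and with AU-15330 in neither.

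**Figure D4:**
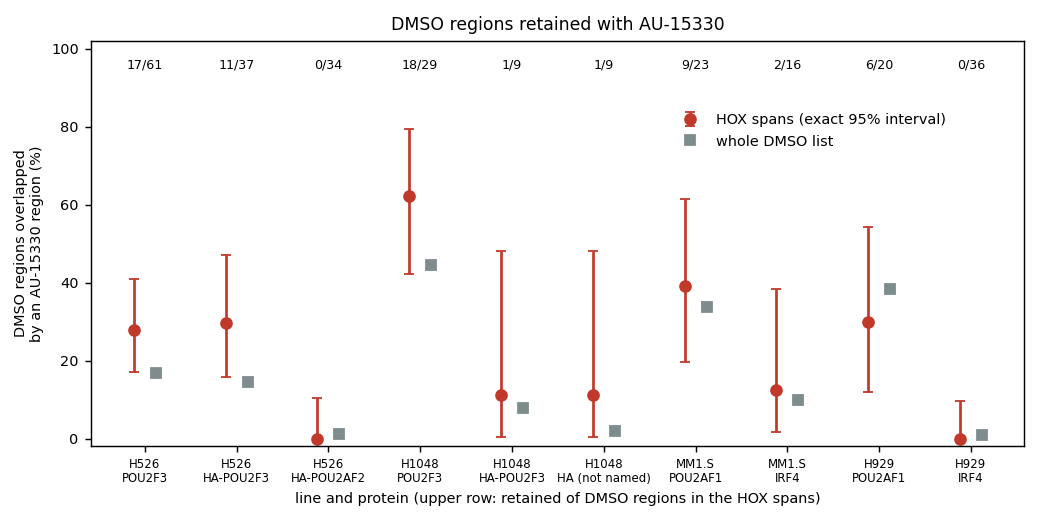
Percent of DMSO regions overlapped in the matching AU-15330 list, for HOX spans (circles with exact 95% intervals) and for the whole DMSO list (squares), with retained over DMSO regions printed above. The interval lies above the list value for POU2F3 and HA-POU2F3 in NCI-H526 cells, where 27.9% and 29.7% stand against 16.7% and 14.6%, and includes it in the other 8 pairs.

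POU2F3 in NCI-H1048 cells was the exception among the pairs, with 45 HOX regions with AU-15330 and 29 with DMSO. The numbers were 13 and 9 in HOXA, 6 and 2 in HOXB, 10 and 9 in HOXC and 16 and 9 in HOXD. Of the 29, 18 were retained (62.1%, 42.3% to 79.3%), against 44.6% over the list. Of the 45, 28 were gained, that is, overlapped no DMSO region, where 67.3% of the AU-15330 list was gained. The list itself was longer with AU-15330 (51408 regions) than with DMSO (38036 regions), and the background pileup was 3.04 and 2.27.

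Of the 15 HOX promoters with a DMSO region 13 kept one (86.7%), against 96.6% over all genes. Gained HOX regions in NCI-H1048 cells brought 7 promoters that had no DMSO region of POU2F3 in that line, among them those of HOXC10, HOXC13, HOXD1, HOXD3, HOXD10 and HOXD13. The strongest was in the intron of HOXA3 upstream of HOXA4, at chr7:27133445-27134191, with a fold of 7.87 and a level of 26. The same site had POU2F3 levels of 13.8 with AU-15330 and 17.6 with DMSO in NCI-H526 cells. The gained HOX regions of the other pairs numbered 1 for POU2F3 in NCI-H526 cells (15.3% of the whole AU-15330 list was gained), 7 for HA-POU2F3 there (41.9%), 2 for HA-POU2F3 in NCI-H1048 cells (73.7%), 2 each for POU2AF1 (38.9%) and IRF4 (49.9%) in MM1.S cells and 3 for POU2AF1 in NCI-H929 cells (31.2%). They numbered 0 for HA-POU2AF2 (83.8%), the unnamed HA pair (72%) and IRF4 in NCI-H929 cells (70.7%). In these other pairs the gained HOX regions with the highest fold were weaker, at 3.76 to 5.49. These were near HOXD1 and HOXC12 in NCI-H526 cells, in HOXD3 for HA-POU2F3 in NCI-H1048 cells, in the HOXB3 and HOXB6 intron and near HOXD8 in MM1.S cells, and in HOXB7 in NCI-H929 cells.

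Where regions were retained, their level differed between lines. In NCI-H526 cells the AU-15330 level was below the DMSO level at 16 of 17 POU2F3 regions (median ratio 0.664, range 0.362 to 1.1) and 10 of 11 HA-POU2F3 regions (0.683, 0.47 to 1.03), beside medians of 0.635 and 0.643 over these lists. POU2AF1 in MM1.S cells was below at 7 of 9 (0.722, 0.536 to 1.16), beside 0.809. In NCI-H929 cells POU2AF1 was below at 3 and above at 3 (0.954, 0.711 to 1.96), beside 0.979. These medians rest on regions called in both lists, which leaves out those with the largest loss.

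In NCI-H1048 cells the POU2F3 level with AU-15330 was above that with DMSO at 13 of 18 retained regions (median 1.22, range 0.334 to 3.05), beside 1.27 over the list, and neighbors went apart. In HOXA the level was above at 6 of 7. The leukemia-linked HOXA9 had 33.3 with AU-15330 and 15.5 with DMSO, HOXA10 had 24 and 11.9, HOXA3 had 16.5 and 7.06 and HOXA6 had 36.5 and 20.3. The folds over local background were closer, at 4.77 and 4.07 for HOXA9, 8.86 and 5.67 for HOXA10, 5.74 and 3.43 for HOXA3 and 8.55 and 6.99 for HOXA6. By fold the median ratio of the retained HOX regions of this pair was 1.1. HOXA5, between HOXA3 and HOXA6, had 12.5 and 27.8, the lone retained HOXA region with a lower level. Outside HOXA, HOXD8 had 22.4 and 10.2. A region with its AU-15330 summit 1086 bases from a HOXC4 TSS had 29.6 and 9.71. HOXC5 had 5.93 and 13.7, and the site beyond EVX2 had 5.6 and 16.8. HOXA5, HOXC5 and the EVX2 site were the strongest DMSO regions of their clusters in this line by fold, and all 3 had lower levels with AU-15330. Picking regions by a high DMSO value favors a lower AU-15330 level with 1 library per condition, so no pattern is drawn from these 3.

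**Figure D5:**
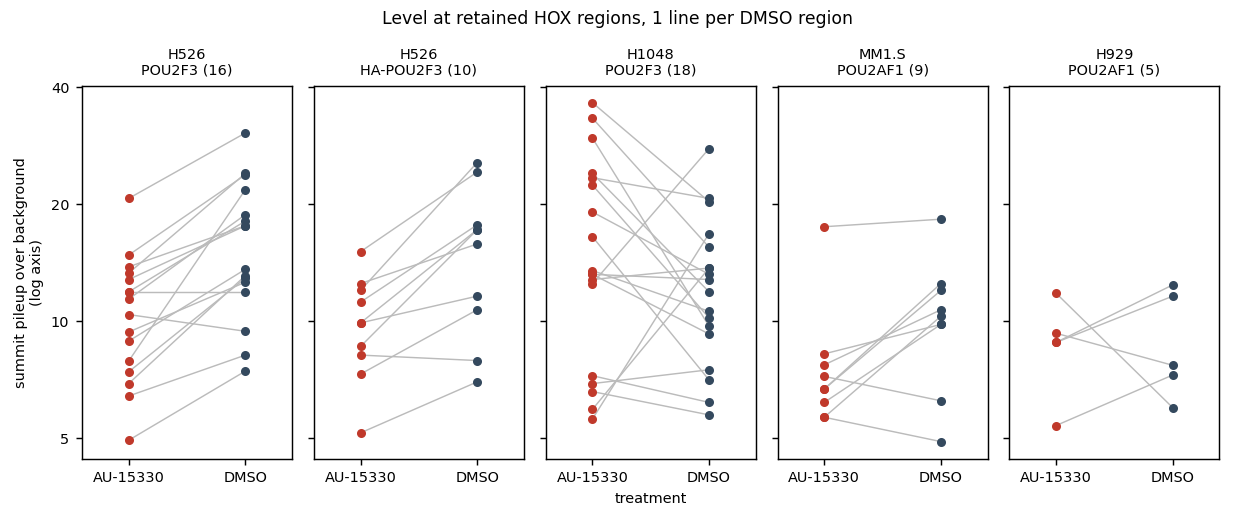
Summit pileup over background (log axis) at each retained HOX region with AU-15330 (left points) and DMSO (right points), 1 line per DMSO region, for the 5 pairs with at least 5 such regions. Nearly all lines go up to DMSO in NCI-H526 cells (16 of 17 and 10 of 11 regions lower with AU-15330), while in NCI-H1048 cells 13 of 18 regions are higher with AU-15330.

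Regulators and partners of HOX genes were counted from lists chosen for this purpose. On the trithorax side (7 genes, among them KMT2A and MEN1), POU2F3 in NCI-H526 cells had 2 promoters with AU-15330 and 7 with DMSO. On the Polycomb side (16 genes, among them EZH2 and SUZ12) it had 3 and 14, and among the TALE partners (9 genes of the PBX, MEIS and PKNOX families) 3 and 5, beside 18.5% and 59.2% of all genes. In NCI-H1048 cells POU2F3 had 7 and 7 trithorax, 16 and 12 Polycomb and 8 and 5 TALE promoters, beside 63% and 41.5% of all genes. POU2AF1 in MM1.S cells had 7 and 7, 12 and 16, and 5 and 6 in the same order, beside 49.6% and 60.1%. In NCI-H929 cells it had 7 and 7, 14 and 14, and 5 and 8, beside 50.6% and 56.9%. KMT2A, which encodes the methyltransferase that keeps HOX genes active, had a promoter region in 18 of the 20 lists, IRF4 with AU-15330 in NCI-H929 cells included at a fold of 7.22. How many of all genes were bound in as many lists is not given here.

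Of the 8 ParaHox and flanking homeobox genes, 1 to 3 had a promoter region in SCLC-P DMSO lists, beside 17.6% to 59.2% of all genes. In myeloma DMSO lists 0 to 1 had one, beside 48.6% to 64.6%, which was PDX1 with IRF4 in NCI-H929 cells (fold 7.26). CDX2, an intestinal factor that acts on HOX genes, had a promoter region in all 6 SCLC-P DMSO lists and in no myeloma list, a pattern not counted over all genes here. The folds were 4.73 with AU-15330 and 6.24 with DMSO for POU2F3 in NCI-H526 cells, 3.99 and 7.73 for HA-POU2F3 in these cells and 5.72 and 4.82 for POU2F3 in NCI-H1048 cells. MEIS1, a TALE partner, had POU2F3 folds of 5.58 with AU-15330 and 8.2 with DMSO in NCI-H1048 cells, and a DMSO fold of 6.08 with no AU-15330 region in NCI-H526 cells. EVX1 and EVX2, the homeobox genes beside HOXA and HOXD, had no promoter region in any list, and neither had CDX1 and CDX4.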

How the data were processed

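The ChIP-seq peak lists of 20 libraries were used, 1 library per list and none pooled. Per the labels and the study's methods, the authors used Trimmomatic 0.39 for trimming and BWA for alignment to GRCh38/hg38, filtered the alignments with SAMtools and Picard, called peaks with MACS2 at a q-value threshold of 0.05 with summits and no control named in the command, and removed blacklisted regions. The deposited values are fold over local background (a ratio), the −log10 p and −log10 q of each region, a score (the −log10 q multiplied by 10 and cut to an integer), and in 18 lists the summit distance from the region start. Without a control, local enrichment from open chromatin or copy number is not removed.

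Regions off chromosomes 1 to 22, X and Y (0.283% to 12.4% of a list) were left out. Spans and TSSs came from GENCODE 44, and promoters were 1 kb either side of the TSS of any transcript. Summit pileup and background were recovered from the fold and −log10 p within a tolerance of 0.002, for at least 99.9% of regions in the 18 lists, while the 2 lists of the unnamed HA pair gave no more than 6.03% and have no levels. Background pileup was 1.21 to 4.03. Motifs were searched on both strands within 100 bases of summits, the CTCF motif by its consensus, and sequences were read from the hg38 genome. Intervals are exact (Clopper-Pearson). Genes bound in the most lists, the strongest regions of each cluster and list, sites of both tumor types and the strongest gained region per pair were named. Values of 1 HOXA gene and some sequences are not reported here. The members and lists were chosen with earlier results of these data known. Alternatives were other flanks, overlaps, q-value minimums, promoter and motif windows, and pairs left out. Scripts were tested on simulated data and used Python 3.11.15, numpy 2.4.6, pandas 2.3.3, scipy 1.17.1 and pysam 0.24.0.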

Additional observations from a re-analysis of the deposited data

Results flagged for a closer look

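POU2F3 in NCI-H1048 cells and in NCI-H526 cells ran in opposite directions with AU-15330. The number of HOX regions with AU-15330 minus that with DMSO was 16 in NCI-H1048 cells and -43 in NCI-H526 cells. The median ratio of AU-15330 to DMSO levels at retained HOX regions was 1.22 in NCI-H1048 cells and 0.664 in NCI-H526 cells. With 1 library per condition the difference was not tested. Over the whole lists the median ratios were 1.27 in NCI-H1048 cells and 0.635 in NCI-H526 cells.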

How the results depend on the processing

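Of 169 values computed under other settings for 37 results, 137 stayed within the spread allowed for them, 32 moved and 0 reversed. That spread was a fixed factor for counts and ratios and the exact interval of the main value for shares. Only the HOXB over HOXA ratios and the level ratios could count as reversed. Some settings left out pairs that add nothing to a result, so those values could not move. No paired analysis was possible because each condition is 1 library, and no replicate could be left out. The octamer shares, the level ratios and the 19 sites of both tumor types stayed within that spread under the settings tried for them. By fold over local background the median ratios in NCI-H526 cells were 0.821 for POU2F3 and 0.892 for HA-POU2F3, against 0.664 and 0.683 by level. For POU2F3 in NCI-H1048 cells the median was 1.1 by fold, against 1.22. With summits within 200 bases the sites of both tumor types numbered 16. With a −log10 q of at least 5, AU-15330 regions numbered 8 in HOXB, 11 in HOXC, 19 in HOXD and 66 in all, and DMSO regions 30, 37, 50 and 176. The HOXB over HOXA ratio in SCLC-P DMSO lists was then 0.109, and HOX promoters summed over myeloma lists were 4 with AU-15330 and 23 with DMSO. Counting gene bodies plus 10 kb upstream gave sums of 73 with AU-15330 and 131 with DMSO in SCLC-P lists, and 33 and 96 in myeloma lists. Without the POU2F3 pair of NCI-H1048 cells, AU-15330 regions numbered 25 in HOXA, 9 in HOXC, 16 in HOXD and 64 in all, and SCLC-P promoters with AU-15330 summed to 21.

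Retained shares moved in 12 of their values. With the −log10 q minimum of 5 in the DMSO list alone they were 41.5% for POU2F3 in NCI-H526 cells and 87.5% in NCI-H1048 cells, against 21.5% and 52.7% of the lists. With it in both lists they were 81.2% for POU2F3 in NCI-H1048 cells, 15.8% for POU2AF1 in MM1.S cells, 0% for IRF4 in MM1.S cells and 0% for the unnamed HA pair, against 45.8%, 35%, 4.49% and 1.89%. With the same number of strongest regions in both lists of a pair they were 83.3% and 50% for POU2F3 and HA-POU2F3 in NCI-H526 cells, 0% for IRF4 in MM1.S cells and 0% for the unnamed HA pair, against 56.4%, 32%, 19.1% and 13.6%. With at least 50% of the DMSO region covered they were 13.5% for HA-POU2F3 in NCI-H526 cells and 17.4% for POU2AF1 in MM1.S cells, against 9.23% and 25.4%. Shares under the q-value minimum or with the strongest regions only rest on fewer DMSO regions than the main shares. The main shares had 9 such regions for the unnamed HA pair and 16 for IRF4 in MM1.S cells, so their 0% values rest on very few. The cause was not tested. The settings that leave out the POU2F3 pair of NCI-H1048 cells, the unnamed HA pair or the pair of low AU-15330 background were chosen after seeing the data.

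Read depth was not given, so the background pileup stands in for it. In the AU-15330 list of HA-POU2AF2, 20 of the 34 DMSO regions would not have been detectable at an unchanged level, and the other 14 would have been. The calculation scales the background pileup alone, and a weaker pulldown was not tested.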
